A study of Mus musculus with 20 samples.

Results

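The open chromatin of mouse tail epidermis 1 week after a second wound was compared with that 8 weeks after a first wound. Overlapping peaks of each deposited list were merged into regions. A region was called gained where no region of the 8-week list overlapped it by 1 bp or more, lost where it stood in the 8-week list alone, and shared otherwise. The second-wound list held 42200 regions and the 8-week list 34644, which joined into 45769 regions of the 101406 that all 10 lists of the series gave together. Of these joined regions, 11431 were gained, 3908 were lost and 30430 were shared.

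Both groups came from Lrig1CreER/Rosa-TdTomato mice, in which cells that express Lrig1 and their descendants can be marked by a red fluorescent protein once Cre is active. All groups carried these alleles, and no unmarked or Cre-free control was used here. The cells were sorted as Lrig1 GL, Sca1+ epidermal cells to enrich for the upper hair follicle, and accessible DNA was profiled by ATAC-seq. The groups are 1 week after the second wound and 8 weeks after the first wound, set beside 1 week after the first wound, homeostasis, PRT4165 (an inhibitor of the Polycomb ubiquitin ligase), vehicle, wounding with UVB, UVB, and cultured cells from a distal memory region and from a control region. By their titles the PRT4165 and vehicle groups are 0w, as homeostasis is, so they had no wound, and both cultured groups were taken 8 weeks after a first wound. Each group had 2 libraries but 1 list made from both, so no spread between libraries could be computed and no difference was tested. Intervals are Wilson 95% intervals and cover counting error only. Age, sex, the interval between the wounds and whether libraries came from separate animals are not stated in the labels.

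Cells of the upper follicle leave their niche after skin wounding and join the repair of the surface epidermis. Chromatin that opens during repair can stay open after the tissue has healed, and epidermal stem cells with such a record answer a later injury faster, which is called wound memory. ATAC-seq reads this state because the Tn5 transposase inserts into DNA that nucleosomes leave free, mostly at promoters and enhancers. Fewer cells with an open region and a less open region in every cell cannot be told apart in such lists.

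Shown here are promoters of wound-related genes whose start region stood in the second-wound list or the 8-week list but not in both, taken from RefSeq (GRCm38.p6, 250 bases before the start, 5′ to 3′). Serpina3n encodes an acute-phase inhibitor of serine proteases, Postn the matrix protein periostin and Areg the EGFR ligand amphiregulin, and their start regions were gained. Plaur encodes the urokinase receptor and Il1f9 the alarmin IL-36 gamma, and their start regions were lost. Capitals mark matches on either strand to 1 of 16 motifs. These are the glucocorticoid receptor motif in Serpina3n, the CEBP motif TTGCNNAA in Postn, and the CREB motif TGACGTCA and the GC box in Areg. They are GC boxes that overlap each other, the AP-1 motif and the CEBP motif in Plaur, and the p53 family and GATA motifs in Il1f9.
Serpina3n promoter, chr12:104406458-104406707, plus strand: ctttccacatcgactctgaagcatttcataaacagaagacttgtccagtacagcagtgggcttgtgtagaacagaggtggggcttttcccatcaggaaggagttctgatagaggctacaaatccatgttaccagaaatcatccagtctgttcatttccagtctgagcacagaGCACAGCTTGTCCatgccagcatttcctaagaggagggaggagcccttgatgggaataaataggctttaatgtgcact
Postn promoter, chr3:54360857-54361106, plus strand: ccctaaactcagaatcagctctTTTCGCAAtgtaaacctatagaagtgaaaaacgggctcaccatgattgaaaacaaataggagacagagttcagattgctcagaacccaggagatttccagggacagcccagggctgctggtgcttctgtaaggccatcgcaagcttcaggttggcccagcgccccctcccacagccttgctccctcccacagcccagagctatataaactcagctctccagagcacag
Areg promoter, chr5:91139349-91139598, plus strand: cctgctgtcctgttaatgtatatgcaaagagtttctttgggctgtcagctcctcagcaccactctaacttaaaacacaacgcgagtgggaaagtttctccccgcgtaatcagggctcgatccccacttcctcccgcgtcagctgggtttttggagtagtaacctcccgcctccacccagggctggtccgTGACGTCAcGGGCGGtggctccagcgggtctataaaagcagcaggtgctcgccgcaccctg
Plaur promoter, chr7:24462233-24462482, plus strand: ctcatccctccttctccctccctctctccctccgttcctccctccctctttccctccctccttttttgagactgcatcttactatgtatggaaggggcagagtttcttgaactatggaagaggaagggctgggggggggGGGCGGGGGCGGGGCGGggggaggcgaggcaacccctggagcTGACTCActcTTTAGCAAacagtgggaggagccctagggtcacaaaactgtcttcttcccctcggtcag
Il1f9 promoter, chr2:24186226-24186475, plus strand: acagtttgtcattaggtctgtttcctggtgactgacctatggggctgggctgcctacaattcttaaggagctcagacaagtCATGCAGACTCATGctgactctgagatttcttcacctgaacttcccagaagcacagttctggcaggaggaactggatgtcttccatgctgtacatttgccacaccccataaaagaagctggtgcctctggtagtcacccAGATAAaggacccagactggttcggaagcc

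The Serpina3n region, chr12:104406535-104406918, had a signal value of 15.9 in the second-wound list and none in the 8-week list. The same region had 15.9 in the list 1 week after the first wound and 6.51 in homeostasis, and none in the vehicle list. It had 11.3 in the PRT4165 list, also without a wound, and 11.2 in the UVB list. The Postn region, chr3:54360847-54361298, had 10.7 in the second-wound list and none at 8 weeks, beside 11.2 at 1 week after the first wound, 8.04 in homeostasis and 14.6 in the vehicle list. The Areg region had 8.53 in the second-wound list and none at 8 weeks, beside 7.92 at 1 week, 9.64 in homeostasis and 14.6 with vehicle. The Plaur region was absent from the second-wound list and had 8.79 at 8 weeks, beside 8.11 at 1 week, 6.96 in homeostasis and 9.99 with vehicle. The Il1f9 region was absent from the second-wound list and had 5.37 at 8 weeks, beside 5.75 at 1 week, none in homeostasis and 8.40 with vehicle. The Areg and Plaur regions were in all 8 other lists, so absence from the second-wound or the 8-week list does not mark them as wound-specific. The signal value is the authors' enrichment at the strongest peak of a region, and its ranks within a list are used below because the scaling between lists is not given.

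Gains outnumbered losses 2.93 to 1. Gained regions were 27.1% of the second-wound list (26.7 to 27.5%), and lost regions were 11.3% of the 8-week list (10.95 to 11.62%). Of all joined regions, 25% were gained and 8.54% lost, which is the background for counts of regions. Genes and gene lists have backgrounds of their own, given with them. The lists differ in length, and the count follows that. When the second-wound list was limited to as many of its strongest regions as the 8-week list holds, 7604 regions were gained and 7455 lost, which is near equality by construction. Among the strongest 50% of each list, 2367 regions of the second-wound list (11.2%) were missing from the whole 8-week list, and 581 of the 8-week list (3.35%) were missing from the whole second-wound list.

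Both classes were weak and narrow. The median signal value of gained regions was 7.42, at percentile 26.9 of the second-wound list, and that of lost regions was 7.33, at percentile 24.9 of the 8-week list. Shared regions had medians of 10.6 in the second-wound list and 9.81 in the 8-week list. Only 82 gained regions and 11 lost regions were among the strongest 10% of their list. Median widths were 484 bp for gained, 422 bp for lost and 735 bp for shared regions. A shared region spans the joined regions of both lists, which widens it by construction. Over all regions of a list the median was 615 bp in the second-wound list and 626 bp in the 8-week list.

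Gained and lost regions lay in like places, mostly away from promoters. Summits lay within 1 kb of a gene start in 11.2% of gained regions (10.6 to 11.8%), 11.1% of lost regions (10.2 to 12.2%) and 31.5% of shared regions. Another 44.8% of gained and 44.6% of lost regions lay inside a gene span but not at its start. Regions over 100 kb from any protein-coding gene were 9.11% of gained and 7.29% of lost regions.

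Most gained regions were also open in skin 1 week after the first wound. Of the gained regions, 70.4% overlapped the list from 1 week after the first wound (69.6 to 71.3%) and 33.6% the homeostasis list (32.7 to 34.4%). Of the lost regions, 70.5% overlapped the 1-week list and 41.4% the homeostasis list. For shared regions these shares were 97.5% and 87.3%. The largest class of gained regions, 4663 or 40.8%, was open 1 week after each wound and in neither the 8-week nor the homeostasis list. Of these, 4093 (87.8%) were in the vehicle list, from unwounded skin. Of the lost regions, 1414 or 36.2% were in the 1-week list and not in homeostasis, and 1319 of those (93.3%) were in the vehicle list. Another 3387 gained regions (29.6%) were in homeostasis and the 1-week list, 451 (3.95%) in homeostasis alone of the pair, and 2930 (25.6%) in neither. The 1-week list is longer than the second-wound, 8-week and homeostasis lists, with 49078 regions. Limited to its 34644 strongest regions, it overlapped 42.3% of gained and 41.1% of lost regions.

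**Figure D1:**
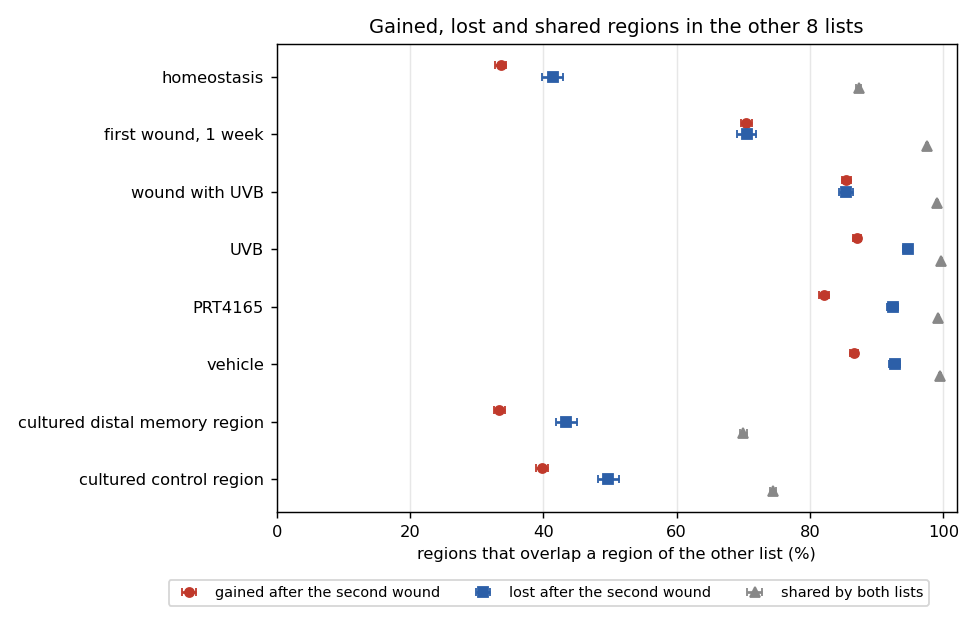
Share of gained, lost and shared regions (percent, x axis) that overlap each of the other 8 lists (y axis), with Wilson 95% intervals. Gained and lost regions overlap the 1-week list at 70.4% and 70.5%, while gained regions overlap homeostasis less, at 33.6% against 41.4% for lost regions.

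The other lists held gained regions a little less often than lost ones, apart from the lists of skin 1 week after the first wound and of wounding with UVB. The vehicle list, one of the longest with 70008 regions, overlapped 86.6% of gained and 92.7% of lost regions, and the UVB list overlapped 87.0% of gained and 94.7% of lost regions. In the list from wounding with UVB, gained regions were at 85.5% and lost regions at 85.4%. Cultured cells overlapped fewer, with 33.4% of gained and 43.4% of lost regions in the distal memory list, and 39.8% and 49.8% in the control-region list. Only 258 gained regions (2.26%) and 24 lost regions (0.614%) overlapped none of the other lists.

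The genes with the most gained over lost regions were long genes, led by Dlg2, Pard3, Rad51b and Sema5a. Of 13930 genes with a region, 36.9% had more gained than lost regions and 10.5% more lost than gained. Dlg2, a scaffold of the synaptic membrane, had 13 gained and 0 lost regions over a span of 1973 kb, with 8 shared. All 13 gained regions lay inside the gene, and 10 of them were among the strongest 50% of the second-wound list. Of the 13, 10 were also open 1 week after the first wound and 11 were in the vehicle list. Over all gained regions these shares were 70.4% and 86.6%. Its shared regions did not move the same way, since 6 of 8 ranked lower after the second wound. Sema5a, a semaphorin guidance cue, had 13 gained, 2 lost and 7 shared regions, and all 7 shared ones ranked lower after the second wound. Pard3, of the apical polarity complex, had 14 gained and 2 lost. Lpp, a LIM protein of focal adhesions, had 13 gained and 3 lost.

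Ntrk2, the receptor TrkB for brain-derived neurotrophic factor, had 11 gained, 1 lost and 13 shared regions. The region at its start had a signal value of 9.09 in the second-wound list and 12.9 at 8 weeks, so the start ranked lower while regions inside the gene were gained. Of its gained regions, 9 were open 1 week after the first wound, 2 in homeostasis and 8 in the vehicle list. Over all gained regions these shares were 70.4%, 33.6% and 86.6%. Fhit, at a fragile site of the genome, had 10 gained and 0 lost regions, and Rbms3 (an RNA-binding protein), Rere (a corepressor), Kalrn (a guanine nucleotide exchange factor) and Psd3 (an exchange factor for Arf6) each had 9 gained and 0 lost. Rad51b, of homologous recombination repair, had 15 gained and 3 lost regions and Zmiz1, a transcriptional coactivator, 11 gained and 1 lost, but with lists of equal length both turned to more lost than gained, by -2 and -1, and among strong regions Zmiz1 had none of either class. The other 10 genes named here kept more gained than lost regions with lists of equal length. Their spans run from 327 kb to 1973 kb, and long genes have more room for regions.

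**Figure D2:**
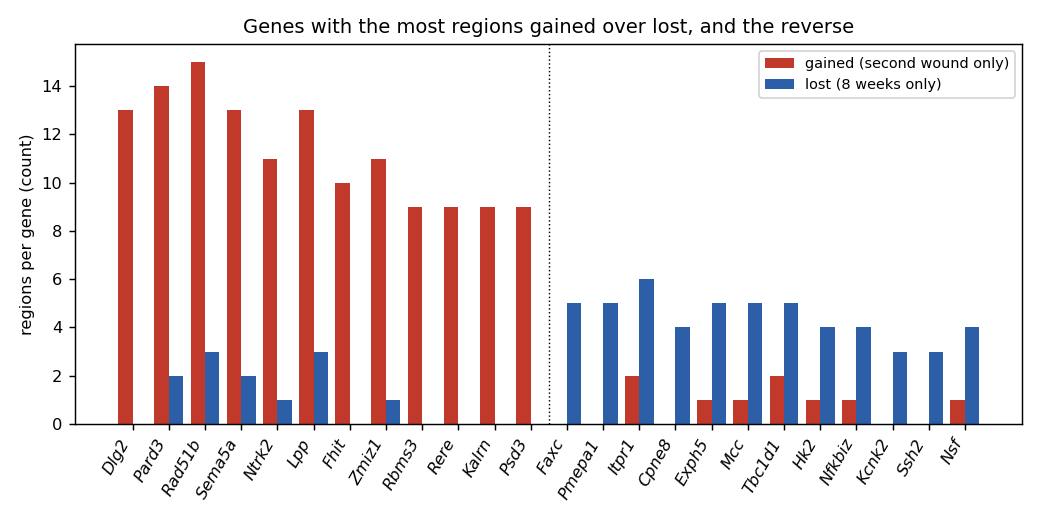
Number of gained (red) and lost (blue) regions per gene (y axis) for 12 genes at each extreme of the count of gained minus lost regions. Dlg2 has 13 gained and 0 lost regions, and Faxc 0 gained and 5 lost.

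Losses were fewer per gene. There were 256 genes with 5 or more gained regions and 11 with 5 or more lost regions. Faxc, named after a fly gene of axon connections, had 0 gained, 5 lost and 0 shared regions, with signal values of 2.20 to 9.24 at 8 weeks. Pmepa1, a feedback inhibitor of TGF-beta signalling, had 0 gained, 5 lost and 4 shared regions. All 5 lost regions were in the list 1 week after the first wound and in the vehicle list. Over all lost regions these shares were 70.5% and 92.7%. The 4 shared regions of Pmepa1 all ranked higher after the second wound. Nfkbiz, a cofactor of NF-kB in the answer to IL-17 and IL-36, had 1 gained and 4 lost regions. All 6 of its shared regions ranked lower after the second wound. The 4 lost regions were likewise all in the 1-week and the vehicle list. Hk2, hexokinase of glycolysis, had 1 gained and 4 lost regions, and the strongest lost one, 57.0 kb from the gene, had 10.9 at 8 weeks. Of its 6 shared regions 5 ranked lower. Tbc1d1, a regulator of glucose uptake, had 2 gained and 5 lost regions, and 12 of its 15 shared regions ranked lower. Exph5, a Rab27 effector in keratinocytes, had 1 gained and 5 lost regions, but its 2 shared regions ranked higher. These 6 genes kept more lost than gained regions with lists of equal length. Among strong regions alone, Faxc, Exph5 and Nfkbiz had none of either class, and Tbc1d1 turned to more gained than lost, by 1. Itpr1, a calcium channel of the endoplasmic reticulum, had 2 gained and 6 lost, and Cpne8, a copine, 0 gained and 4 lost. Of the shared regions, 8 of 17 in Itpr1 and 6 of 9 in Cpne8 ranked higher.

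Single lost regions were moderate in strength. The strongest lay in Pibf1, chr14:99176597-99176928, at 20.1 in the 8-week list, and it was open in all 8 other lists. The Cpne8 region, 41.2 kb from the gene, had 17.4 at 8 weeks and 18.1 in the 1-week list. It was absent from homeostasis but had 25.9 in the vehicle list of unwounded skin.

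The strongest gained regions were of a different kind. Of 41 gained regions with a signal value of 20 or more, 36 were under 300 bp wide, and 22 were in no other list. A region in Zfp949, chr9:88553164-88553380, had 46.0 in the second-wound list and 26.5 in homeostasis, and was absent from the 1-week list. A region 38.0 kb from Ntrk2, chr13:58768349-58768555, had 39.6 and was in the second-wound list alone, as was a region in Npffr2 with 43.7. Among the 995 shared regions of this strength, whose widths span both lists, 14 were under 300 bp. The second-wound list held 52 such strong narrow regions, the 8-week list 18 and the other lists 17 to 47. What these narrow regions are was not tested. Wider gained regions of this strength lay in Kcnq1, with 33.4, and near Snx4, with 20.7 in the second-wound list and 19.4 in the 1-week list. Both were in all 8 other lists. Others were not: a region in Ncoa1, with 25.6, was in no other list. A region at chr17:4626119-4626643, with 27.7, was in 2 other lists and that at the start of Ddx3y, with 23.3, in 4.

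Where both lists held a region, the order of strength was mostly kept. The Spearman rank correlation between the signal values was 0.854 over 30430 shared regions of 1 genome, a description of these lists. The change in percentile, second wound minus 8 weeks, had an SD of 15.6 points. It was 25 points or more upward in 1784 regions (5.86%) and downward in 1699 (5.58%). The order was closer at gene starts, with a rank correlation of 0.904, than away from them, with 0.816.

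Shared regions that the 1-week list held and the homeostasis list lacked were higher in rank after the second wound more often than lower. There were 3384 of them, of which 3305 (97.7%) were in the vehicle list of unwounded skin. Of the 3384, 11.2% were higher by 25 points or more after the second wound and 6.80% lower. Among the 26297 shared regions also in homeostasis, 5.19% were higher and 5.35% lower. Weak regions have less room below them, so the regions were also split by their mean percentile in both lists, a choice made after the data were seen. Between mean percentiles 25 and 50, 18.2% of the regions without a homeostasis region were higher (16.2 to 20.3%) and 10.7% lower (9.18 to 12.5%). Between 50 and 75, 19.7% were higher (16.6 to 23.3%) and 11.4% lower (9.03 to 14.4%). For regions also in homeostasis these shares were 9.68% higher and 10.1% lower, and 7.91% higher and 7.97% lower. Below percentile 25, 2.003% of the regions without a homeostasis region were higher and 1.73% lower, and above 75 there were 72 of them.

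**Figure D3:**
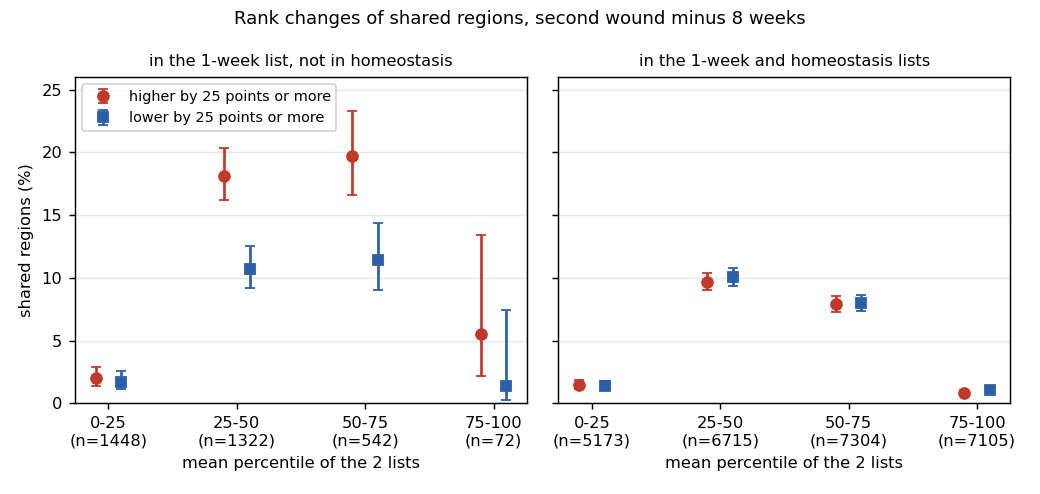
Share of shared regions (percent, y axis) whose percentile was higher (red) or lower (blue) by 25 points or more in the second-wound list than in the 8-week list, by mean percentile of both lists (x axis), with Wilson 95% intervals. Regions in the 1-week list and not in homeostasis (left) in the middle bins were higher in 18.2% and 19.7% and lower in 10.7% and 11.4%, while regions also in homeostasis (right) were higher and lower about equally often.

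Gata6 had the highest median change in rank of the 956 genes with at least 6 shared regions. It encodes a transcription factor of the upper follicle and sebaceous duct, lies on chromosome 18, and spans 33.1 kb. Its 6 shared regions all ranked higher after the second wound, with a median change of 26.6 points. The region at an end of the gene had a signal value of 11.3 in the second-wound list and 6.77 in the 8-week list, beside 8.86 at 1 week after the first wound and 6.28 in homeostasis. The shared region 79.4 kb away had 13.8 in the second-wound list and 7.57 at 8 weeks, beside 11.2 at 1 week and 10.6 in homeostasis. A gained region 59.5 kb away had 15.3 in the second-wound list and was absent at 8 weeks, beside 14.0 at 1 week and 8.74 in homeostasis. Of 4 gained regions, 2 were in neither the 1-week nor the homeostasis list, beside 25.6% of all gained regions, and 1 region was lost. The gained regions lie over 20 kb from the gene, and with genes limited to regions within 20 kb the balance was -1.

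Postn moved in the same direction in all of its 5 regions. Beside the gained start region, gained regions 5.82 kb and 53.05 kb outside the gene had 7.22 and 15.8 in the second-wound list, and one inside it had 8.22. The only shared region, 70.5 kb away, had 17.5 in the second-wound list and 7.75 at 8 weeks, beside 13.1 at 1 week and none in homeostasis. The vehicle list of unwounded skin had 20.3 there. All gained Postn regions were in the vehicle list too, at 8.11 to 14.7.

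**Figure D4:**
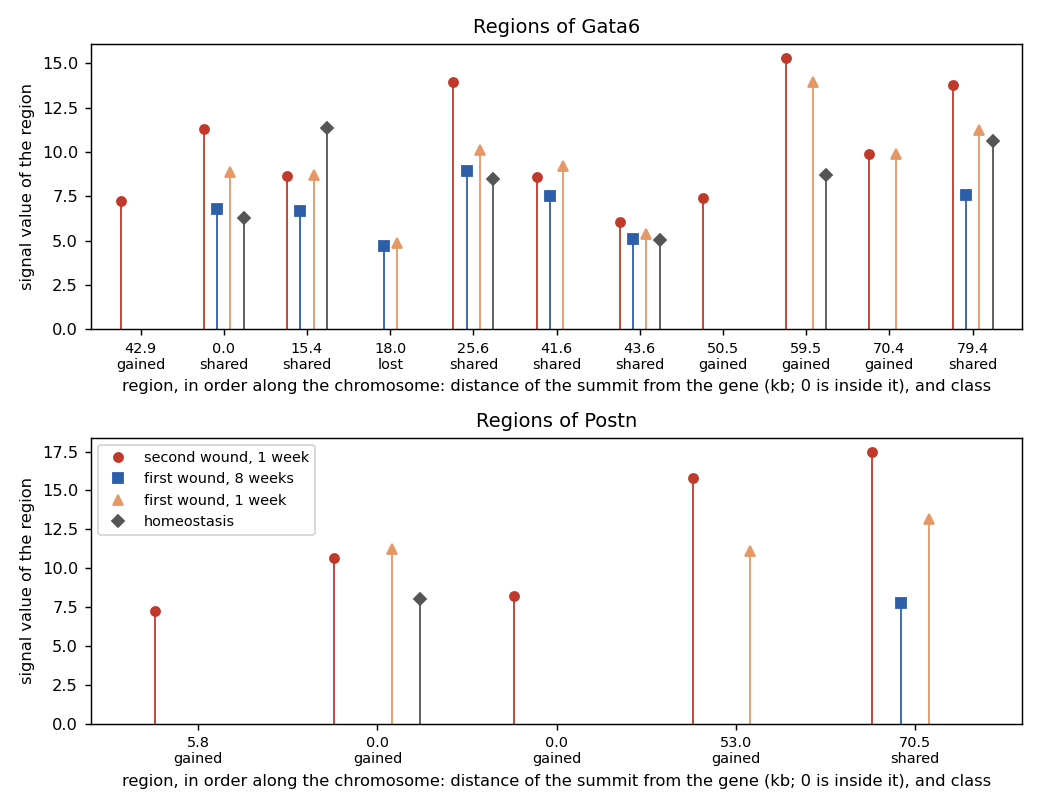
Signal value (y axis) of every region assigned to Gata6 and Postn, in order along the chromosome (x axis: distance from the gene in kb, 0 inside it, and class), in 4 lists. A missing symbol means that the list held no region there. All 6 shared Gata6 regions ranked higher in the second-wound list than at 8 weeks, and 4 of 5 Postn regions have no 8-week value.

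The largest single changes in rank touched other genes. The region upward most lay 24.6 kb from Atp10a, with 18.4 in the second-wound list and 7.17 at 8 weeks, a change of 74.3 points, and it was in the 1-week list at 16.4 but not in homeostasis. Downward, a region 225 bp from Il1f8, the gene of IL-36 beta, had 6.39 in the second-wound list and 14.4 at 8 weeks, a change of -74.81 points. The 1-week list had 17.3 there, the vehicle list 21.1 and homeostasis none. A region 51.1 kb from Me3, malic enzyme of mitochondria, had 5.77 in the second-wound list and 14.2 at 8 weeks, a change of -77.19 points. Among genes with at least 6 shared regions, Kif5c, a kinesin heavy chain, had 6 of 6 lower, and Atp6v1c1, a subunit of the proton pump, had the lowest median change, -20.53 points.

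Gene lists were read against 24.5% gained and 8.54% lost over all 42434 regions assigned to a gene. Epidermal differentiation genes, growth factor receptors and keratinocyte markers had shares gained above that background. With lists of equal length the background was 17.5% gained and 17.9% lost, and among strong regions alone 6.67% and 1.71%. At equal length a list can thus hold more lost than gained regions and still be near its background. Epidermal differentiation genes had 37.1% gained and 10.5% lost of 105 regions, with 16 of 27 members more gained and 1 more lost. Its start regions were gained at Tgm5 (a transglutaminase, 7.52), Ivl (involucrin of the cornified envelope, 5.89) and Tgm1, and a region at an end of Aloxe3 was lost. Grhl3, a barrier transcription factor, had 4 gained and 0 lost regions but turned to -2 with lists of equal length, and Klf4, a factor of the upper layers, had 3 and 0. Growth factor receptors had 32.1% gained and 6.92% lost of 159 regions, led by Ntrk2 and by Igf1r, the IGF-1 receptor, with 6 gained and 0 lost. Axl and Fgfr3 had gained start regions, and a region at an end of Pdgfb was lost. Keratinocyte markers had 28 gained and 4 lost of 77 regions, with all 10 members more gained, led by Epcam with 5 and 0. With lists of equal length, differentiation turned to 20 gained (22.7%) and 23 lost (26.1%), and keratinocyte markers to 11 (18.3%) and 22 (36.7%). Receptors stayed at 28 gained (20.6%) and 25 lost (18.4%).

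Pathways of the follicle were near or a little above the background. Wnt pathway genes had 29.0% gained and 8.23% lost of 231 regions, with 28 of 38 members more gained, among them Tcf7l2, a nuclear effector, with 4 gained and 0 lost. Notch pathway genes had 29.2% gained, led by the coactivator Maml3 with 9 gained and 1 lost. Upper follicle identity genes had 29.5% gained and 7.69% lost of 78 regions, and Lrig1 itself had 3 gained and 0 lost regions and a start region of 9.72 in the second-wound list and 10.5 at 8 weeks. Bulge and lower follicle genes had 28.0% gained, led by Runx1 with 5 and 0, and by Postn. Sebaceous and lipid genes had 18 gained and 6 lost of 61 regions, and stayed at 16 gained (27.1%) and 14 lost (23.7%) with lists of equal length. At that length Wnt turned to 34 (17.2%) and 37 (18.7%), near the shares over all genes of 17.5% and 17.9%. Notch turned to 21 (19.8%) and 22 (20.8%) and the upper follicle to 17 (23.6%) and 18 (25%). TGF-beta and BMP genes had 24.8% gained and 11.7% lost, with Smad3 at 5 gained and 0 lost and a lost region at an end of Bmp2, and turned to 28 and 60.

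The early-response and wound-activated lists were near the background for gains, and the alarmin and NF-kB lists were below it. The interferon list was a little above it, with 28.8% gained and 7.69% lost of 52 regions. AP-1 and immediate early genes had 22.4% gained and 3.74% lost of 107 regions, with Jun at 4 gained and 0 lost, Fos at 3 and 0 and Atf3 at 3 and 0. These regions were weak, and with lists of equal length the list turned to 8 gained and 36 lost, Fos to -5 and Atf3 to -2. Alarmins, cytokines and chemokines had 17.4% gained and 13.0% lost of 69 regions. Their start regions were lost at Il18, Il1f9 and an end of Cxcl5, and gained at Ccl20. The Cxcl5 region had none in the second-wound list, 6.98 at 8 weeks, 12.8 at 1 week after the first wound and 9.99 with vehicle. NF-kB factors had 19.2% gained and 9.59% lost, with Nfkbia, the inhibitor IkB-alpha, at 5 gained and 0 lost (-3 with lists of equal length) and Nfkbiz at 1 and 4. Wound-activated keratinocyte genes had 23.8% gained and 6.92% lost of 130 regions, with the hyaluronan receptor Cd44 at 7 gained and 1 lost (-1 with lists of equal length) and gained start regions at Tnc, Areg and Gjb2. Among strong regions alone this list had 8 gained (8.16%) and 0 lost, near the shares over all genes of 6.67% and 1.71%. With lists of equal length it turned to 20 (16.8%) and 25 (21.0%), beside 17.5% and 17.9% over all genes. Alarmins turned to 9 and 21 and NF-kB factors to 6 and 13.

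Junction, basal layer and migration genes were split. Basal layer and hemidesmosome genes had 28.8% gained and 7.20% lost of 125 regions, with Trp63, the basal master regulator p63, at 5 gained and 1 lost. Desmosome and adherens junction genes had 20.4% gained and 10.2% lost of 98 regions, with a gained region at an end of Dsc2, and migration, matrix and integrin genes 18.6% gained and 8.57% lost of 140 regions. EGFR ligands and MAPK feedback genes had 23.8% gained and 5.74% lost of 122 regions, with Errfi1, an inhibitor of EGFR, at 5 gained and 0 lost. With lists of equal length these turned to 20 gained and 30 lost, 8 and 27, 15 and 25, and 18 and 21.

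Metabolic and cell cycle lists were below the background for gains. Cell cycle genes had 18.2% gained and 3.90% lost of 77 regions, and glycolysis and hypoxia genes 19.5% and 5.31%, with Hif1a at 3 gained and 0 lost beside Hk2 at 1 and 4. The shared regions of the glycolysis and hypoxia list had a median change of -4.22 points, against -0.11 over all genes. Hippo pathway genes had the lowest share gained of the lists drawn, 16.5%. Subunits of Polycomb complexes and H2A deubiquitinases had 20 gained and 4 lost of 80 regions, with Jarid2 at 6 gained and 0 lost. Developmental regulators that Polycomb silences in many tissues had 31.3% gained and 13.4% lost of 67 regions, with Hoxb1 at 4 gained and 0 lost, and start regions gained at Hoxb1 and Hoxb4 and lost at Six2. Forkhead, Klf and other regulators had 85 gained and 27 lost of 327 regions. Cebpb, a factor of differentiation, had 10 gained and 2 lost regions, and Foxo1 7 gained and 1 lost, though among strong regions alone Foxo1 had 0 gained and 1 lost. With lists of equal length Cebpb turned to -1 and the list to 42 gained and 66 lost, cell cycle to 7 and 17, glycolysis to 9 and 15, Hippo to 7 and 20 and developmental regulators to 15 and 16, while Polycomb subunits stayed at 13 and 10.

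**Figure D5:**
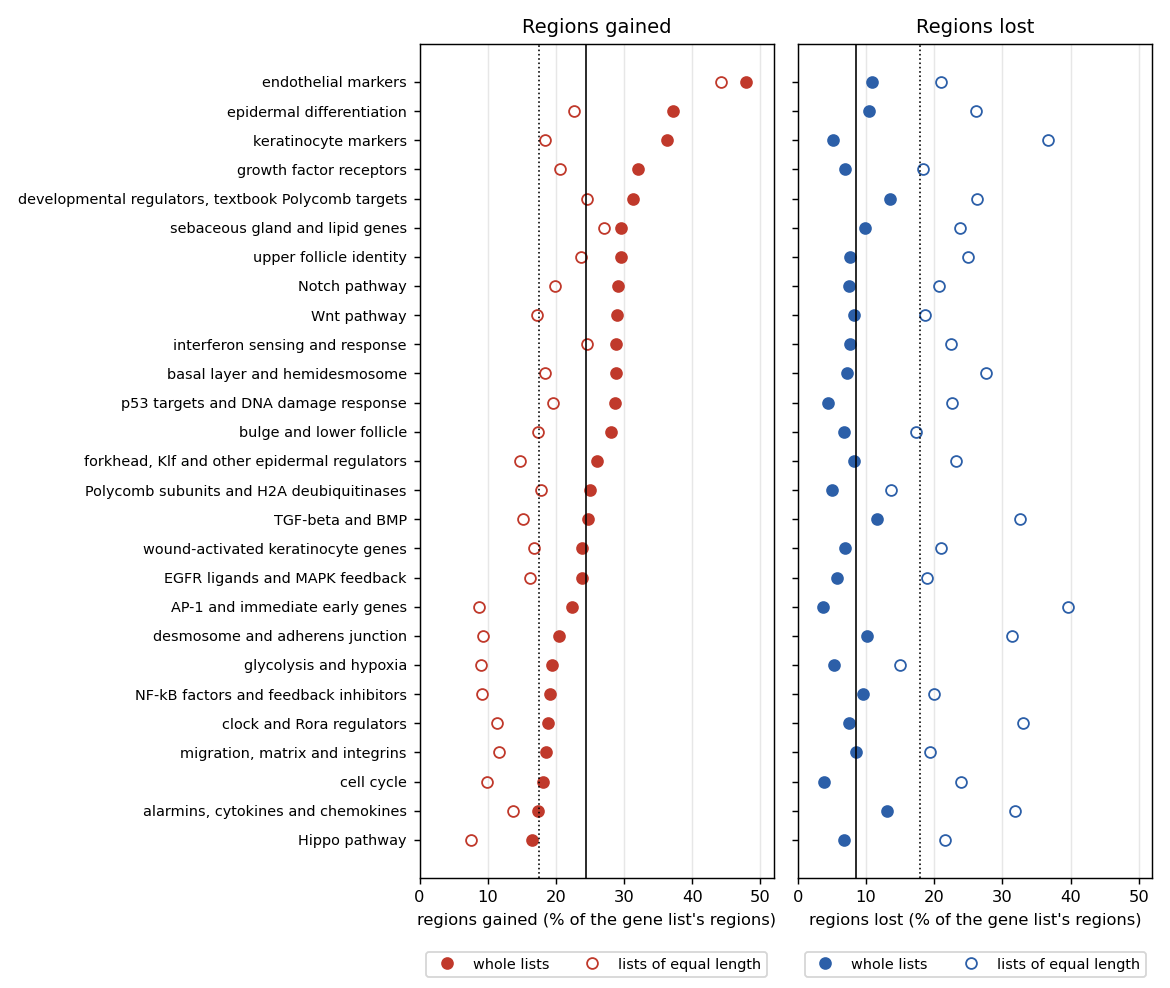
Share of regions gained (left) and lost (right), in percent of the regions of each gene list with 40 or more regions, with whole lists (filled) and lists of equal length (open). Vertical lines mark the share over all genes with whole lists (solid, 24.5% gained and 8.54% lost) and with lists of equal length (dotted, 17.5% gained and 17.9% lost).

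Markers of other cells were mostly closed at their starts in both lists. A start counted as open where a summit of that list lay within 1 kb of it, or of an end of the gene where no start is listed, as for Thy1, Spi1, Col1a1 and Pmel. The sums below are of the deposited values, whose scaling between lists is not given. Of 10 keratinocyte markers, 6 had an open start in the second-wound list and 7 in the 8-week list, with summed signal values of 53.3 and 53.1. Of 9 T cell markers found, Thy1 alone was open, with 6.60 in the second-wound list and 9.24 at 8 weeks, and Cd3e was closed in both. Of 10 macrophage and Langerhans cell markers, 2 were open in each list, with sums of 16.5 in the second-wound list and 24.97 at 8 weeks. Spi1 was open in both, Cd68 in the second-wound list and H2-Aa, a class II antigen-presenting molecule, at 8 weeks, while Ptprc and Cd207 were closed. None of 10 fibroblast markers was open by this count in the second-wound list and 2 were at 8 weeks, Vim with 8.21 and Col1a1 with 8.52. By overlap of regions, 1 start region of these markers was called lost, that of Vim. Endothelial markers had 1 open start in each list, Erg (8.87) in the second-wound list and Tek (7.56) at 8 weeks. Yet 22 of their 46 regions were gained (47.8%) and 5 lost (10.9%), against 24.5% and 8.54% over all genes. This was the highest share gained of the lists drawn, with Pecam1 at 6 gained and 2 lost and Cdh5 at 3 and 0. With lists of equal length 19 were gained (44.2%, against 17.5% over all genes) and 9 lost. Among strong regions alone 7 were gained and 0 lost. Melanocyte markers had 2 open starts in each list, Mitf and Pmel, with sums of 42.7 and 37.3. No Merkel cell marker was open at its start. The part of other cells in the results was not tested.

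The lists also differed at sex-linked genes. Starts of Ddx3y, Uty and Eif2s3y on the Y chromosome had 23.3, 18.6 and 14.8 in the second-wound list and no region in the 8-week list. Xist, the RNA that silences an X chromosome, had no region in the second-wound list and 7.498 at 8 weeks. The 1-week list held all 4, and homeostasis held Xist alone. Kdm5d, also on the Y chromosome, had no value in any of the 10 lists. On the X chromosome 188 of 823 regions were gained and 104 lost, a share of 12.6% (10.5 to 15.1%), against 11236 gained and 3803 lost of 44935 on the autosomes, a share lost of 8.46% (8.21 to 8.72%). Shared regions on the X chromosome were higher by a median of 5.70 points. The sex of the animals is not in the labels, so sex and wounding cannot be told apart in these lists.

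Promoters that changed had the base composition of open promoters. Of 21263 listed promoters, 852 (4.01%) had a gained region and no shared one and 248 (1.17%) a lost region and no shared one. Median GC content was 62% in gained, 61.3% in lost, 62.3% in shared and 49.7% in promoters without a region. The GC box GGGCGG stood in 65.4% of gained and 58.9% of lost promoters, beside 70.7% of promoters with a shared region and 46.2% of all. The ETS motif CCGGAAGT stood in 5.40% of gained and 8.87% of lost promoters, beside 9.89% of shared and 5.15% of all. The AP-1 motif TGANTCA stood in 6.22% of gained and 6.85% of lost promoters, beside 4.70% of shared and 6.99% of all, and the GATA motif AGATAA in 6.81% and 5.65%, beside 4.995% of shared and 9.65% of all. Gained and lost promoters thus lay between the shared ones and those of all genes in the GC box, ETS, AP-1 and GATA motifs. The motifs of the printed promoters were found in 0.442% (glucocorticoid receptor), 10.2% (CEBP), 2.23% (CREB) and 0.701% (p53 family) of all promoters. These are matches of letters in 250 bases, not sites.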

How the data were processed

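ATAC-seq peaks of 10 groups, each with 2 libraries, were analysed. Coordinates are on mm10, the build that the submitters' processing notes name. How reads were aligned, filtered, shifted for Tn5 and called, and how deep the libraries were, is not stated there. The authors made 1 deposited list per group from its pair of libraries, with peaks that passed a reproducibility threshold by the name of the list. Per peak the authors deposited a score, 540 or higher in every list, a signal value of enrichment, a −log10 p and the offset of the summit. The authors' signal values ordered and filtered the regions of each list. Values of different lists are printed side by side as deposited, on a scaling that is not given.

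Overlapping peaks were merged on the sex chromosomes and 19 autosomes, with the signal value and summit of the strongest peak. Percentiles of shared regions were taken among shared regions. Overlap counts were checked with bedtools 2.31.1, and 4 of 4 were equal. Python 3.11.15, numpy 2.4.6, pandas 2.3.3, scipy 1.17.1 and matplotlib 3.10.9 were used. Tested on simulated data, the 8-week list of 34644 regions with 3000 removed and 5000 added gave 3000 lost and 5000 gained, and 200 of 200 moved ranks were found. These changes were made without noise, so they check the code and not how lists of unlike depth behave.

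The RefSeq table for GRCm38.p6 (mm10) gave 21887 protein-coding genes. A region was given to the shortest gene around its summit, and outside genes to the nearest within 100 kb. Starts are listed for 17492 genes. For 4395 others, which include the genes of chromosome 18, both ends of the span were used. The 33 gene lists hold 641 genes, of which 638 were found, 3 by an older name. The members and lists were chosen with earlier results of these data known. Named are 12 genes at each extreme of gained minus lost regions, 8 at each extreme of the median rank change, the 5 strongest or most moved regions of a kind, up to 4 members per gene list, the strongest start regions on a list and the 8 strongest at any start, of which the text gives a part. Plaur, Il1f9 and Areg promoters, and list starts beyond the strongest, were picked after their values were seen. Alternatives were an overlap of 50%, a score of 830, strong regions, equal lengths, autosomes, widths of 300 bp, summits, −log10 p, a window of 500 bp and a reach of 20 kb. Counts of strong regions by gene and rank changes by mean percentile were added after the data were seen.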

Additional observations from a re-analysis of the deposited data

How the results depend on the processing

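No paired analysis was possible because each list was made from both libraries of its group and holds no value per library, and for the same reason no replicate could be left out. Motifs around summits were not run, as no genome sequence was used here. Depth is unknown, so a region absent from a list may lie below its threshold. Gains exceeded losses in number under every alternative for the region counts, but nearly vanished as an excess with lists of equal length. The counts of gained and lost regions were 5974 and 2205 in the strongest 50% of each list, 7604 and 7455 with lists of equal length, 2367 and 581 for the strongest 50% that the whole other list lacks, and 20773 and 8748 for each peak by its summit. With a score of 830 or more 1622 regions were lost. The Spearman rank correlation of shared regions ran from 0.841 to 0.859. Homeostasis held 31.2% of gained and 38.4% of lost regions with an overlap of 50%, 32.5% of gained regions when limited to its 34644 strongest regions, and 45.3% of gained and 61.4% of lost regions in the strongest 50%. The 1-week list held 65.8% and 64.4%, 42.3% and 41.1%, and 83.4% and 85.7% of gained and lost regions under these settings. In a window of 500 bp, 8.72% of gained, 7.57% of lost and 28.7% of shared regions lay at gene starts. Genes with more gained regions numbered 3252 with lists of equal length and 1701 among strong regions, and genes with more lost regions 3120 and 432. Gained minus lost turned to -1 for Gata6 with genes within 20 kb. Among strong regions it turned to -1 for Foxo1 and for the migration, matrix and integrins list, and to 1 for Mcc and Tbc1d1, and it was 0 for 70 of 142 genes and for the alarmin and TGF-beta lists. With lists of equal length, where 17.5% of regions were gained and 17.9% lost over all genes, it turned negative in 25 genes and 21 gene lists. It was -1 for Btg2, Cd44, Cdk6, Cebpb, Notch1, Ptpn14, Thy1 and Zmiz1, and -2 for Arntl, Atf3, Ccn1, Dlx2, Dusp1, Grhl3, Itgb6, Pkp1, Rad51b and Sdc1. It was -3 for Nfkbia, -4 for Ccnd1 and Cdh1, -5 for Fos and Perp, and -6 for Bmp7 and Fosb. Among gene lists it was -1 for the upper follicle, Notch and developmental regulators, -3 for EGFR ligands, differentiation, Wnt and p53 targets, -5 for wound-activated genes, -6 for glycolysis, -7 for NF-kB, and -10 for migration, the basal layer and the cell cycle. It was -11 for keratinocyte markers, -12 for alarmins, -13 for Hippo, -19 for the desmosome, -21 for clock genes, -24 for forkhead and Klf, -28 for AP-1 and -32 for TGF-beta. Lists whose regions are weak lose them when the longer list is cut to its strongest regions, by the construction of that alternative.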

Other observations

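Beyond the lists described, the balance for interferon sensing and response was 15 gained and 4 lost of 52 regions, with Socs3, a feedback inhibitor of cytokine receptors, at 5 gained and 1 lost. Start regions of Irf1, an interferon response factor (6.05 in the second-wound list, none at 8 weeks), and of Ddx58, the RNA sensor RIG-I (8.94 in the second-wound list, none at 8 weeks), were gained, and both were in the 1-week and homeostasis lists. With lists of equal length 12 regions were gained and 11 lost. Clock genes and regulators tied to Rora had 20 gained and 8 lost of 106 regions, with Nfil3, a repressor in the clock, at 4 gained and 0 lost, and turned to 11 gained and 32 lost with lists of equal length. Genes for p53 targets and DNA damage had 33 gained and 5 lost of 115 regions, and Cdkn1a, the cell cycle inhibitor p21, had 2 gained and 0 lost, both among the strongest 50% of the second-wound list.

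Dapk2, a death-associated kinase, was noticed after its values were seen, with 8 gained, 0 lost and 1 shared region, all within the gene, at signal values of 5.09 to 12.9 for the gained regions of the second-wound list.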
